A study of Mus musculus with 2 samples.

Results

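Glycolysis enzymes and the transporters that bring glucose in and carry lactate out were followed on 2 two-colour arrays of polarized mouse lymphocytes. The group was a list of 10 genes, Slc2a1, Hk2, Pfkp, Aldoa, Tpi1, Pgk1, Pgam1, Eno1, Ldha and Slc16a3, taken by gene symbol from the platform's annotation. Of these, 9 genes were measured, by 15 probes, among 17501 named genes and 36547 probes in all. The expression of Eno1 was not analysed here, and Eno1 enters only the promoter counts below. The measured genes comprised 7 enzymes and 2 transporters. One array, called the Th17 array here, was hybridised with RNA of Th17-polarized lymphocytes (Cy5) and of Th0 lymphocytes (Cy3). The other, the Th1 array, held RNA of Th1-polarized lymphocytes (Cy5) and of Th0 lymphocytes (Cy3). The labels give a TRP-1 mouse as the source of each RNA. T cells of such mice are known to recognise an antigen of melanoma, and Th0 cells are by usual usage activated without lineage-directing cytokines. The age of the mice, whether RNAs shared a mouse, the culture time, the cytokines and any sorting of the cells were not stated. There was 1 array per comparison with 0 dye swaps, so values are given without replicates and without tests.

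Glycolysis turns glucose into pyruvate in the cytosol, and lactate dehydrogenase turns pyruvate into lactate so that the pathway can keep running. T cells that divide and make cytokines are known to take up much glucose and to export lactate. In mouse T cells, the hypoxia-inducible factor HIF-1 and the factor Myc are known activators of many of these genes, and glycolysis is known to be used by both Th1 and Th17 cells.

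Values are the deposited log2 ratios of the 2 channels of an array, where 1 is a 2-fold difference. The direction of the ratio is unsettled. The titles and dyes name the polarized cells over Th0. However, Il17a, the cytokine gene that names Th17 cells, lay at −5.37 on the Th17 array, and Il22, another Th17 cytokine gene, at −5.79. On the Th1 array, the Th1 cytokine gene Ifng lay at −2.02 and the Th1 regulator gene Tbx21 at −1.25. Each of these genes thus lay on the side opposite to the titled reading. Under the titled reading a positive value is more RNA in the polarized cells, and under the turned reading it is more in Th0 cells. Values are given as deposited, by side. The arrays were not centred alike either: the median over probes was −0.05 on the Th17 array and −0.11 on the Th1 array, and the most repeated value was −0.43 on the Th17 array and −0.85 on the Th1 array. As a yardstick, the log2 ratios of probes of the same gene varied with a pooled SD of 0.50 on the Th17 array and of 0.52 on the Th1 array (5871 genes, each with 2 to 19 probes). This SD says nothing of variation between cultures or mice. It is a spread of single probes, while a gene's value may average several, and the share of all named genes beyond it was not counted.

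Glycolysis genes lay close to 0 on the Th17 array and mostly on the positive side of the Th1 array. The median of the 9 genes was 0.03 (1.02-fold) on the Th17 array and 0.45 (1.36-fold) on the Th1 array, beside medians over all named genes of −0.03 on the Th17 array and −0.08 on the Th1 array. Above 0 lay 5 of 9 on the Th17 array, where 46.3% of all named genes did, and 7 of 9 on the Th1 array, where 42.6% did. Widely expressed control genes outside glycolysis, such as Actb, Hprt and Rpl13a, lay above 0 in 5 of 13 on the Th17 array and in 11 of 13 on the Th1 array. No member was 2-fold apart on either array: 0 of 9 on the Th17 array, against 8.42% of all named genes (2.9% positive and 5.52% negative), and 0 of 9 on the Th1 array, against 10.2% (3.27% positive and 6.92% negative). The plot of probe values shows that the enzymes from Pfkp to Ldha carried the positive values of the Th1 array, while at the entry of the pathway Slc2a1, on both arrays, and Hk2, on the Th1 array, lay on the negative side. In bulk RNA, fewer cells of a type and less RNA per cell cannot be told apart.

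**Figure D1:**
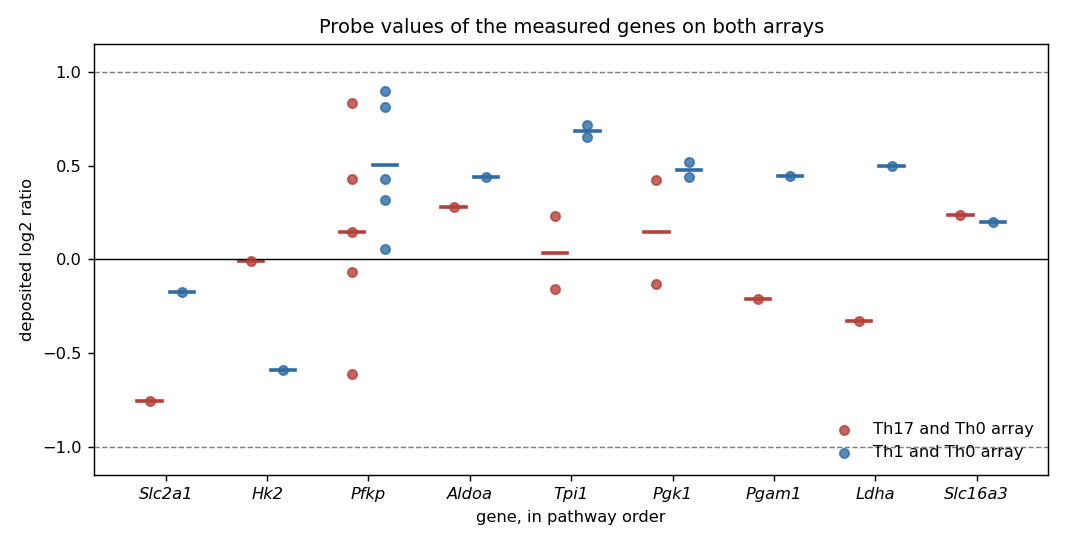
Deposited log2 ratios of the 9 measured genes in pathway order, on the Th17 array (red, left of each pair) and the Th1 array (blue, right). Points are probes, short bars are the gene's mean over its probes, dashed lines mark 2-fold, and every probe lies between them: the lowest is Slc2a1 at −0.75 on the Th17 array and the highest a Pfkp probe at 0.90 on the Th1 array.

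Slc2a1 encodes GLUT1, the main glucose importer of activated T cells. Its single probe lay at −0.75 (1.69-fold) on the Th17 array and at −0.18 (1.13-fold) on the Th1 array. It was the lowest of the 9 genes on the Th17 array, with 8.95% of all named genes below it, and the only one there farther from 0 than the SD between probes. Hk2, the inducible hexokinase that traps glucose as glucose 6-phosphate, lay at −0.01 on the Th17 array and at −0.59 (1.51-fold) on the Th1 array, also by 1 probe. It was the lowest of the group on the Th1 array, where 16.2% of all named genes lay below it. As deposited, the uptake and trapping genes thus had their larger negative value on different arrays.

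Pfkp, the platelet-type subunit of phosphofructokinase that commits sugar to glycolysis, had 5 probes and the widest probe spread. They lay at −0.61, −0.07, 0.15, 0.43 and 0.84 on the Th17 array, with a mean of 0.15 ± 0.54 (SD over 5 probes). On the Th1 array the same probes, in that order, lay at 0.43, 0.05, 0.32, 0.90 and 0.81, with a mean of 0.50 ± 0.35. All 5 were above 0 there, against 3 of 5 on the Th17 array. Aldoa, the aldolase that cleaves the phosphorylated sugar, lay at 0.28 on the Th17 array, the highest of the group, and at 0.44 on the Th1 array. Tpi1, which interconverts the triose phosphates, had probes at −0.16 and 0.23 on the Th17 array and at 0.72 and 0.65 on the Th1 array. With a mean of 0.69 (1.61-fold) it was the highest member on the Th1 array, and 92.7% of all named genes lay below it. On the Th17 array its mean was 0.03.

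Pgk1, the first ATP-yielding enzyme of the pathway, had probes at −0.13 and 0.42 on the Th17 array and at 0.44 and 0.52 on the Th1 array. Its mean was 0.15 on the Th17 array and 0.48 on the Th1 array. For Tpi1 and Pgk1, the probes therefore agreed on the side of the Th1 array but not on that of the Th17 array. Pgam1, the phosphoglycerate mutase of most tissues, lay at −0.21 on the Th17 array and at 0.45 on the Th1 array. Ldha, the lactate dehydrogenase subunit that favours lactate production, lay at −0.33 (1.25-fold) on the Th17 array and at 0.50 (1.42-fold) on the Th1 array. Pgam1 and Ldha were the 2 members on opposite sides of the arrays, negative on the Th17 array and positive on the Th1 array, a pattern that 13.4% of all named genes had. Slc16a3 encodes MCT4, a lactate exporter, and lay at 0.24 on the Th17 array and 0.20 on the Th1 array, the smallest difference of the group.

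Neighbours in the order of the genes were not separated beyond the spread between probes. On the Th17 array the order from the lowest was Slc2a1, Ldha, Pgam1, Hk2, Tpi1, Pfkp, Pgk1, Slc16a3 and Aldoa, and the widest step between neighbours was 0.43. On the Th1 array it was Hk2, Slc2a1, Slc16a3, Aldoa, Pgam1, Pgk1, Ldha, Pfkp and Tpi1, with a widest step of 0.42. On that array, 6 enzymes from Aldoa to Tpi1 lay between 0.44 and 0.69, and Tpi1 and Hk2 were the 2 members farther from 0 than the SD between probes.

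The steps of the pathway that the list leaves out were Gpi1, not analysed here, Gapdh and Pkm. Gapdh, the dehydrogenase that follows Tpi1, was measured by 30 probes of 1 transcript. It averaged −0.21 ± 0.12 on the Th17 array and 0.25 ± 0.08 on the Th1 array (SD over 30 probes). Of the 30 probes, 2 lay above 0 on the Th17 array and 30 on the Th1 array, the same sides as Pgam1 and Ldha as deposited. Whether these probes repeat 1 sequence was not checked, and their number is not a count of replicates. Pkm, the pyruvate kinase that ends glycolysis, lay at −0.28 on the Th17 array and at −0.09 on the Th1 array, with its 2 probes negative on both.

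For a comparison of Th17 with Th1 cells, each gene's value on the Th1 array was subtracted from its value on the Th17 array. This assumes that the Th0 RNA was the same on both, which the labels do not state, and both comparisons would then share that RNA. Most glycolysis genes lay on the negative side of this difference, with 7 of 9 below 0 and a median of −0.36 (1.28-fold), beside 46.1% of all named genes below 0 and a median of 0.04 over them. A negative difference is less RNA in Th17 than in Th1 cells under the titled reading and more under the turned reading. No member reached a 2-fold difference, 0 of 9 against 8.14% of all named genes.

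Ldha had the most negative difference, −0.83 (1.77-fold), with 5.22% of all named genes below it. Pgam1 and Tpi1 followed at −0.66 and −0.65, and the probes of Tpi1 lay at −0.88 and −0.43. Slc2a1 lay at −0.58 (1.49-fold). These enzymes of the middle and end of the pathway and the glucose importer, together with Hk2, made up the 5 genes farther from 0 than the SD of 0.52 between probes of this difference. Hk2 stood on the other side at 0.58, with 88.7% of all named genes below it, and the step of 0.55 to its neighbour Slc16a3 at 0.04 was the only one wider than that SD. Pfkp at −0.36 ± 0.42 (SD over 5 probes), Pgk1 at −0.33 and Aldoa at −0.16 lay within it. Over all named genes this difference had an SD of 0.64. Their share beyond 0.52 was not counted, so the count of 5 genes stands without a comparison. One Pfkp probe lay at −1.04 and another at 0.02. Gapdh lay at −0.46 ± 0.15 (SD over 30 probes), with 1 of 30 probes above 0, and Pkm at −0.20.

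**Figure D2:**
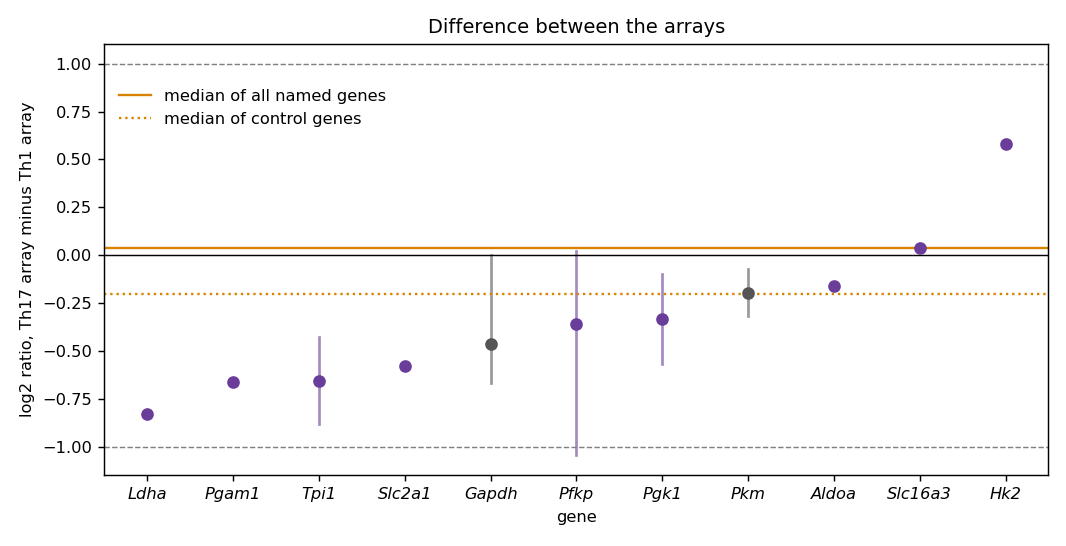
Difference of the log2 ratios, Th17 array minus Th1 array, for the 9 measured genes (purple) and for Gapdh and Pkm (grey), sorted. Points are gene means, vertical lines span the gene's probes, dashed lines mark 2-fold, and the orange lines mark the medians of all named genes (0.04, solid) and of control genes (−0.20, dotted). Ldha lies lowest at −0.83 and Hk2 alone lies well above 0, at 0.58.

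The size of the group's lean depended on the zero of each array. The control genes had medians of −0.02 on the Th17 array and 0.24 on the Th1 array over 13 measured genes, and of −0.20 in the difference, with 11 of 13 below 0. Subtracting the control genes' median from each array left the glycolysis genes at a median of 0.06 on the Th17 array, 0.20 on the Th1 array and −0.09 in the difference. That centring moved the median of all named genes by 0.24 on the Th1 array and to 0.30 in the difference. It turned the sign of Hk2 on the Th17 array (0.02), of Slc16a3 on the Th1 array (−0.04) and of Aldoa in the difference (0.10). Subtracting the most repeated value, which on the reading that the deposited ratios carry 1 constant per array is that of equal signals in both channels, gave medians of 0.46 on the Th17 array, 1.29 on the Th1 array and −0.78 in the difference. Then all 9 genes lay above 0 on the Th1 array, 7 of them at least 2-fold, and Ldha (0.10), Pgam1 (0.21) and Hk2 (0.42) turned positive on the Th17 array. On this zero, however, 90.4% of all named genes lay above 0 on the Th1 array. Under each of these zeros the median of the 9 genes was more positive on the Th1 array than on the Th17 array.

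**Figure D3:**
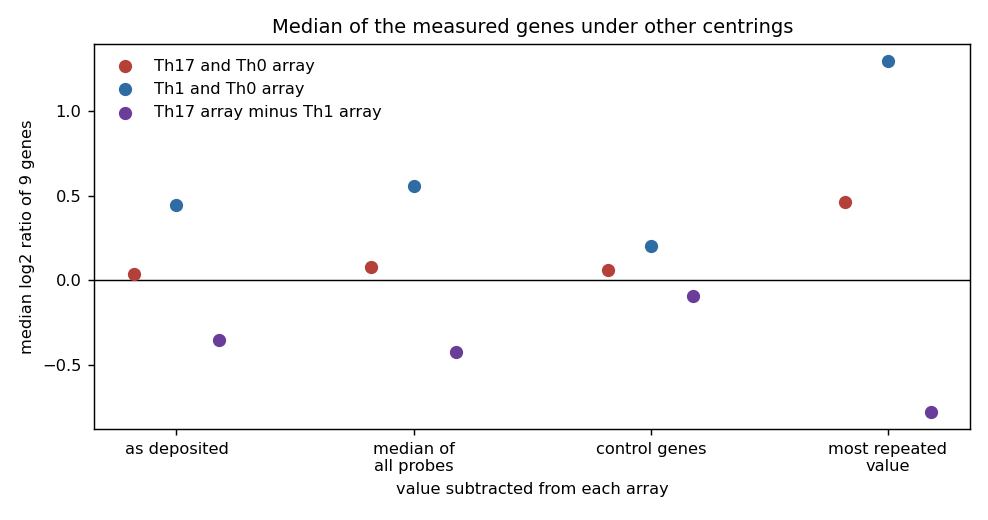
Median log2 ratio of the 9 measured genes as deposited and after subtracting 3 other zeros from each array, for the Th17 array (red), the Th1 array (blue) and their difference (purple). The difference stays below 0 in each, between −0.78 and −0.09.

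The promoters of the members furthest apart in the difference are shown because many genes of the pathway are known targets of HIF-1, whose binding core is ACGTG or GCGTG. Shown are the 3 most negative genes, Ldha, Pgam1 and Tpi1, and the most positive, Hk2, chosen after their values were seen. Each sequence is the 250 bases before the gene's annotated start, for Ldha the first of 2 listed starts, in RefSeq (mouse build GRCm38.p6), 5′ to 3′ on the gene's strand, with each match to the core, read on either strand, in capitals. They lie at chr7:46845554-46845803 (plus strand) for Ldha, chr19:41911621-41911870 (plus) for Pgam1, chr6:124814159-124814408 (minus) for Tpi1 and chr6:82774455-82774704 (minus) for Hk2.
Ldha: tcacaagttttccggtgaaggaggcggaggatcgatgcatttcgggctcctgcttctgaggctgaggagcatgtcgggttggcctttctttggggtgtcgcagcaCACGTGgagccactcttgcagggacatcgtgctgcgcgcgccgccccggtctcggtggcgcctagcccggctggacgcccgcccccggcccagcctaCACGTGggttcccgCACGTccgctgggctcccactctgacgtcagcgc
Pgam1: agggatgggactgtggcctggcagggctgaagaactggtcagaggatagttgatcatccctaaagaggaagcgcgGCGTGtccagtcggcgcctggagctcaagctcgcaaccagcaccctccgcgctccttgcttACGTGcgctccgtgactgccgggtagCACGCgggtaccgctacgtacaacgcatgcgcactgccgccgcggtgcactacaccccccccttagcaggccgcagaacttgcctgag
Tpi1: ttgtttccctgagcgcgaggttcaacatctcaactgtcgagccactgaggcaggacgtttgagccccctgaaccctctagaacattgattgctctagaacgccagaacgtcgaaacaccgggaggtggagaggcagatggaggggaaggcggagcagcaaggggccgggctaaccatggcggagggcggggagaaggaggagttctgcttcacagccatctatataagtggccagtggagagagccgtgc
Hk2: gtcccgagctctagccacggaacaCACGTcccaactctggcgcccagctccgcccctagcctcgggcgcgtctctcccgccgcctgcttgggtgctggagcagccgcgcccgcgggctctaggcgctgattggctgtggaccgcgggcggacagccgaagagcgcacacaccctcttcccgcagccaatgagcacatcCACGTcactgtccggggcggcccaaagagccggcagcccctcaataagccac

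The Ldha window shown held 5 matches to the core, counting both strands, among them both strands of 2 copies of CACGTG, the E-box that Myc and related factors bind. The window of the second Ldha start held 1 match and 0 copies of the E-box. Pgam1 held 3 matches, Hk2 held 2 and Tpi1 held 0. Promoter windows were matched by symbol for 10 of 10 listed genes, 15 windows in all, since Aldoa, Ldha and Eno1 have several annotated starts. A core was found in 13 of these 15 windows, beside 38.6% of all 32851 mouse windows of this length. Some windows of Aldoa and of Eno1 overlap, so the same letters were counted more than once. By gene, 9 of 10 had a core in at least 1 window, and no share over all genes was counted for this. The E-box CACGTG was found in 1 of 15 windows, beside 6.02% of all, and the GC box GGGCGG, on either strand, in 11 of 15, beside 32.7% of all. A match describes the letters of the window and not a site of binding.

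Isoenzymes, other transporters and the enzymes of the steps left out, Gapdh and Pkm among them, lay near 0 as a group. Over 27 measured of 32 listed, the median was −0.07 on the Th17 array and 0.00 on the Th1 array, with 1 gene at least 2-fold on the positive side of each and 0 on the negative. Among all named genes, 2.9% were positive and 5.52% negative on the Th17 array, and 3.27% and 6.92% on the Th1 array. Slc2a3, the gene of the glucose transporter GLUT3, was the 1 such gene of the Th17 array, at 1.80 (3.49-fold), and lay at 0.38 on the Th1 array. Slc2a6, another sugar transporter gene, was that of the Th1 array, at 1.16, and lay at −0.49 on the Th17 array. Slc2a1 and Slc2a3, the main glucose importer genes of T cells, thus lay on opposite sides of both arrays as deposited, though both were positive on the Th1 array with the most repeated value subtracted. Their differences were −0.58 for Slc2a1 and 1.43 for Slc2a3 (1 probe each). Pfkl, the liver-type phosphofructokinase, lay at −0.07 on the Th17 array and 0.59 on the Th1 array, close to 0 and positive on the same arrays as Pfkp. Ldhb, the other main lactate dehydrogenase subunit, lay at −0.51 on the Th17 array and 0.10 on the Th1 array, the same sides as Ldha as deposited, but negative on both (−0.49 and −0.14) when centred on control genes. Bpgm, the mutase of bisphosphoglycerate, lay at 0.84 on the Th17 array and 0.87 on the Th1 array, and the hexokinase relative Hkdc1 at 0.24 on the Th17 array and −0.60 on the Th1 array.

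Genes that control glycolysis had a median of −0.11 on the Th17 array and 0.00 on the Th1 array, over 19 measured of 20. Hif1a, the HIF-1 subunit set by oxygen, lay at −0.28 on the Th17 array and −0.71 on the Th1 array. Myc lay at −0.55 on the Th17 array and −0.87 on the Th1 array. Both factors were on the negative side of the Th1 array, opposite to 7 of the 9 glycolysis genes there. With the most repeated value subtracted, Hif1a turned positive, at 0.15 on the Th17 array and 0.14 on the Th1 array, and Myc lay at −0.12 on the Th17 array and −0.02 on the Th1 array. Egln3, a prolyl hydroxylase that marks HIF subunits for destruction, lay at −1.02 on the Th17 array and −1.16 on the Th1 array, and its relative Egln1 at −0.83 on the Th17 array and −0.36 on the Th1 array. Pfkfb2, which makes and removes the activator of phosphofructokinase, lay at 0.33 on the Th17 array and −1.16 on the Th1 array. Its relative Pfkfb3 lay at −0.52 on the Th17 array and 0.15 on the Th1 array. The kinase gene Akt1 lay at −0.20 on the Th17 array and 0.26 on the Th1 array.

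Hypoxia-inducible genes outside glycolysis had a median of −0.07 on the Th17 array and −0.06 on the Th1 array, over 18 measured of 20. Their list shares Egln3 with the genes that control glycolysis and Pdk1 with those of pyruvate's entry into mitochondria. At least 2-fold apart were 4 of them on the Th17 array, all negative, and 3 on the Th1 array, 2 negative and 1 positive. The shares of all named genes were 5.52% negative on the Th17 array, and 6.92% negative and 3.27% positive on the Th1 array. Egln3, named above, was among the negative genes of both arrays. Adm, the gene of the vasodilator adrenomedullin, lay at −2.34 on the Th17 array and −1.39 on the Th1 array. Mxi1, a Myc antagonist gene, lay at −1.19 on the Th17 array and −0.38 on the Th1 array. Vegfa, an angiogenic growth factor gene, lay at −0.44 on the Th17 array and 1.24 on the Th1 array, and the transferrin receptor gene Tfrc at −1.06 on the Th17 array and 0.81 on the Th1 array. The collagen prolyl hydroxylase gene P4ha1 lay the other way, at 0.33 on the Th17 array and −0.91 on the Th1 array.

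Pentose phosphate pathway genes, which branch from glycolysis towards NADPH and ribose, lay mostly on the positive side of the Th1 array. Their median was 0.19 on the Th17 array, 0.48 on the Th1 array and −0.26 in the difference, over 10 measured of 11. On the Th1 array 9 of 10 lay above 0, beside 42.6% of all named genes. In the difference 9 of 10 lay below 0, beside 46.1% of all named genes. Prps1, which makes the ribose donor of nucleotide synthesis, lay at −1.11 on the Th17 array and 0.46 on the Th1 array, and Prps2, its relative, at −0.60 on the Th17 array and 0.25 on the Th1 array. Pgd, an NADPH-yielding dehydrogenase, lay at 0.28 on the Th17 array and 0.80 on the Th1 array. Taldo1, the transaldolase, lay at 0.38 on the Th17 array and 0.72 on the Th1 array. The pentose isomerase Rpia lay at 0.76 on the Th17 array and 0.93 on the Th1 array, the epimerase Rpe at 0.50 on both, and Tktl1, a transketolase relative, at 0.10 on the Th17 array and −0.62 on the Th1 array.

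Genes of pyruvate's entry into mitochondria and of the shuttles had a median of 0.22 on the Th17 array, 0.44 on the Th1 array and −0.15 in the difference, over 21 measured of 23. At least 2-fold apart was 1 of them on the Th17 array, on the positive side, and 4 on the Th1 array, 3 positive and 1 negative. Beside these stand 2.9% of all named genes positive on the Th17 array, and 3.27% positive and 6.92% negative on the Th1 array. Gpd2, the mitochondrial enzyme of the glycerol phosphate shuttle, passed on both, at 1.41 on the Th17 array and 2.0 on the Th1 array. Mdh1, the cytosolic malate dehydrogenase, lay at 0.67 on the Th17 array and 1.18 on the Th1 array. Dld, a subunit of the pyruvate dehydrogenase complex, lay at 0.43 on the Th17 array and 1.0 on the Th1 array. Pdk3 and Pdk4 encode kinases that inhibit that complex. Pdk3 lay at −0.24 on the Th17 array and 0.93 on the Th1 array, and Pdk4 at −0.13 on the Th17 array and −1.10 on the Th1 array.

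Gluconeogenesis and glycogen genes had a median of 0.06 on the Th17 array, 0.38 on the Th1 array and −0.07 in the difference, over 16 measured of 17. Pck2, the mitochondrial phosphoenolpyruvate carboxykinase, lay at 1.65 on the Th17 array and 0.55 on the Th1 array. Pck1, its cytosolic counterpart, lay at −0.97 on the Th17 array and −1.14 on the Th1 array, so the pair lay on opposite sides of both. The glycogen phosphorylase gene Pygl lay at −0.27 on the Th17 array and 0.91 on the Th1 array, and the glycogen synthase gene Gys2 at −0.08 on the Th17 array and −1.2 on the Th1 array. Centring on control genes lowered every Th1 array value by 0.24, which left the medians of the pentose phosphate, pyruvate and gluconeogenesis genes there at 0.24, 0.19 and 0.14. It turned the sign of their medians in the difference, to 0.0039 for the pentose phosphate genes, 0.11 for the pyruvate genes and 0.20 for the gluconeogenesis genes.

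**Figure D4:**
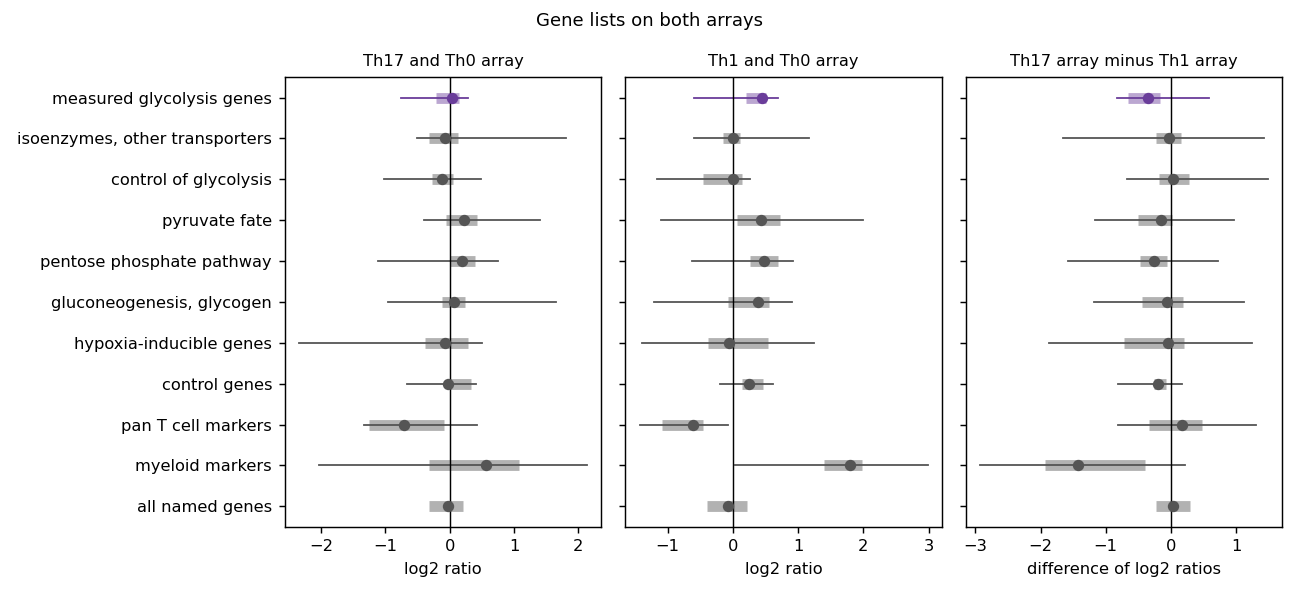
Gene lists on the Th17 array (left), the Th1 array (middle) and in their difference (right), as log2 ratios. Points are medians over genes, thick bars the interquartile range and thin lines the whole range, which is not drawn for all named genes. The glycolysis genes (purple) and the pentose phosphate genes have medians of 0.45 and 0.48 on the Th1 array, and myeloid markers at 1.80.

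Markers of myeloid cells lay on the positive side of the Th1 array too. Their median was 0.56 on the Th17 array (range −2.04 to 2.14, 9 of 15 above 0) and 1.80 on the Th1 array (0.03 to 2.98, 15 of 15 above 0), with a median difference of −1.43. Pan T cell markers had a median of −0.71 on the Th17 array (−1.34 to 0.43, 2 of 10 above 0) and −0.61 on the Th1 array (−1.43 to −0.07, 0 of 10 above 0), with a median difference of 0.16. The shares of all named genes above 0 were 46.3% on the Th17 array and 42.6% on the Th1 array. B cell markers, over 7 genes, had a median of 0.14 on the Th17 array (−1.25 to 0.34) and −0.15 on the Th1 array (−1.12 to 0.32). CD8 T cell and NK cell markers, over 8, had a median of −0.27 on the Th17 array (−2.17 to 3.72) and −0.35 on the Th1 array (−2.49 to 3.22). Red cell markers, over 3, had a median of 1.26 on the Th17 array (0.18 to 1.51) and 0.18 on the Th1 array (−0.21 to 0.54). Their part in the glycolysis values was not tested. A ratio holds no level, so neither the presence of a marker nor the abundance of a glycolysis RNA can be read from the table.

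Signal levels are not in the table, and very low signal was looked for in the ratios. Under the reading of 1 constant per array, a weaker channel of at most 20 units, found from ratios of whole numbers, matched 0 of 15 probes on the Th17 array, beside 6.60% of all one-gene probes, and 1 of 15 on the Th1 array, beside 9.24%. The 1 match was the Pfkp probe at 0.81, for which 6 units was the smallest fit. Multiples of 6 fit the same ratio, so a match does not show that the channel was weak. How many probes match by accident was not counted.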

How the data were processed

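RNA of polarized mouse lymphocytes was measured on 2 two-colour arrays. Per the labels' protocols, RNA was column-purified, and amino allyl amplification and labelling started from 500 ng. The authors deposited 1 value per probe and array, taken from its values to be a log2 ratio of the 2 channels. Scale was settled from the values. Direction and centring stay unknown. Scanner software, background correction and normalization are not given in the sources used here. Precision is limited by the number of arrays. Probe annotation came from the platform, dated before current gene lists, and was updated by gene number to GRCm38.p6 names for 26774 of 26926 one-gene probes. Probes with several genes (203) or unnamed here (9418) were left out.

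Probes of a gene were averaged on the log2 scale with Python 3.11.15, pandas 2.3.3 and numpy 2.4.6. The averaging code was run on simulated data with planted differences larger than any member's and less noise than between the probes here. That run checks the code only, not differences of the size reported. Genes at least 2-fold apart were counted beside the same count over all named genes. No test was made, since each group held 1 array. The text names all members, Gapdh, Gpi1 and Pkm, and of each pathway list the genes at least 2-fold apart or of largest absolute value. Alternatives were 3 other centrings, 3 other probe rules and a 1.5-fold threshold. The members and lists were chosen with earlier results of these data known. Promoter sequences came from RefSeq.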

Additional observations from a re-analysis of the deposited data

Results flagged for a closer look

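Some genes lay on opposite sides of the Th17 array and the Th1 array. With 1 array each, these differences were not tested. Of the measured glycolysis genes, Pgam1 differed by −0.66 and Ldha by −0.83 (Th17 array minus Th1 array, log2), both under 2-fold. Both lay on the positive side of both arrays when the most repeated value was subtracted. Other pathway genes named were kept here only if at least 2-fold apart on an array or in the difference. Of these, Slc2a6 differed by −1.65, Pdk3 by −1.17, Prps1 by −1.58, Pygl by −1.17, Vegfa by −1.68 and Tfrc by −1.87. On the other side of the difference were Pfkfb2 at 1.49 and P4ha1 at 1.24. Apart from Pfkfb2, with 3 probes, each of these genes had 1 probe. Their sides under the other zeros are not given here and may change as those of Pgam1 and Ldha did. Gapdh and Ldhb, among others, also lay on opposite sides as deposited, under 2-fold on both arrays and in the difference.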

How the results depend on the processing

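Each value rests on 1 array, so its error between samples is unknown, and the order and the zero of the deposited ratios are unsettled. The medians of the 9 genes kept their sign under every alternative tried, except that on the Th17 array the probe with the smallest absolute value gave −0.13. The median of the difference ranged from −0.78 to −0.09. With the most repeated value subtracted, 8 genes lay above 0 on the Th17 array, the Th1 and Th0 median was 1.29 with 7 genes at least 2-fold apart, and in the difference 1 gene lay above 0 and 4 were at least 2-fold apart. Centring on the median of all probes also left 1 gene above 0 in the difference. With the probe of smallest absolute value, 2 genes lay above 0 on the Th17 array, and with that of largest absolute value 1 gene, Pfkp, was 2-fold apart in the difference. These rules chose a probe separately for each array and for the difference. The Pfkp difference of −1.04 was thus from another probe than its array values of 0.84 (Th17 array) and 0.90 (Th1 array). At a 1.5-fold threshold 1 gene passed on the Th17 array (Slc2a1), 2 on the Th1 array (Tpi1 and Hk2) and 3 in the difference (Ldha, Pgam1 and Tpi1). The share of all named genes at 1.5-fold was not counted, so these counts stand without a comparison. Of 27 member values, 3 changed sign when centred on control genes, 2 on the median of all probes and 6 on the most repeated value. Of 36 list medians, 10, 4 and 14 changed sign under the same 3 centrings. Among all named genes 2-fold apart, the negative share was 65.5%, 67.9% and 44.4% on the Th17 array, on the Th1 array and in the difference. It was 62.0%, 56.5% and 51.1% when centred on the median of all probes, 63.6%, 86.1% and 23.3% on control genes, and 25.4%, 5.39% and 81.8% on the most repeated value. The counts of these genes were 1474, 1784 and 1425 as deposited, and 1915, 5511 and 2030 with the most repeated value subtracted. No paired analysis was possible because each group held 1 array.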
